A study of Oryza sativa with 20 samples.

Results

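The genes described here are 10 rice (Oryza sativa) genes for pathogenesis-related (PR) proteins and chitinases, followed in leaves fed on by caterpillars of the rice leaf folder Cnaphalocrocis medinalis. They were chosen by identifier as named members of these families, and all 10 were among the 92858 identifiers listed for each library. The list holds PR1a (OS07G0129200), PR1b (OS01G0382000), the PR10 genes PBZ1 (OS12G0555500), JIOsPR10 (OS03G0300400) and OS12G0555000, a thaumatin-like PR5 gene (OS12G0628600), PR4 (OS11G0592200), and 3 chitinase genes (OS06G0726100, OS06G0726200 and OS10G0542900). By the numbering of their identifiers, PBZ1 and OS12G0555000 lie close together on chromosome 12 and the chitinases OS06G0726100 and OS06G0726200 carry neighbouring numbers on chromosome 6.

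PR proteins are small, stable proteins that plant leaves accumulate after infection, wounding or treatment with defense hormones, and salicylic acid and jasmonic acid (JA) call up different members. PR1 proteins are secreted and serve as markers of the response to pathogens. PR10 proteins are intracellular and related to birch pollen allergens, PR5 proteins resemble the sweet protein thaumatin, PR4 proteins belong to the chitin-related barwin family, and chitinases cleave chitin, the polymer of fungal cell walls and of the insect cuticle and gut lining.

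The study followed 5-week-old plants of the rice strain Minghui 63 in unfed leaves (0 h) and in leaves fed on for 1, 6, 12 or 24 h. Each leaf that was fed on carried 1 larva of instar 3, starved for 2 h beforehand. A Parafilm bag held the larva on the second leaf, and the 0 h plants wore the same bags with no larva. Larvae were put on at different times and all leaves were harvested together. Each time point had 4 libraries of leaf RNA, and each library merged leaves of 5 plants. All groups share the strain and the bags. No mechanically wounded leaves are among these samples, so that effects of wounding and of the caterpillar itself cannot be told apart. Levels are given in FPKM (fragments scaled by gene length and by the total of the library), so that they can be set side by side between genes of different length. Changes are log2 fold changes of FPKM with 1 added, a scale that shrinks the change of a gene with a low level.

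The libraries held 17796536 to 22090145 fragments on genes. All 5 leaf markers examined (genes for the Rubisco small subunit and chlorophyll-binding proteins) were at or above 2.54 FPKM in every library. Their summed level ranged from 5742 to 8549 FPKM at 24 h, against 10915 to 12665 FPKM at 0 h, and from 6519 to 9776 FPKM at 12 h. This lower sum was carried by the 2 most abundant markers, OS09G0346500 (mean 5677 FPKM at 24 h and 8912 FPKM at 0 h) and OS01G0600900 (851 FPKM at 24 h and 1801 FPKM at 0 h). The other markers did not move as one, with OS12G0292400 at 104 FPKM at 24 h and 106 FPKM at 0 h, OS01G0720500 at 25.6 FPKM at 24 h and 22.5 FPKM at 0 h, and OS12G0291100 at 511 FPKM at 24 h and 638 FPKM at 0 h. The part of these markers in the changes below was not tested. Of 24058 identifiers with enough signal to be tested, 3.06%, 23.6%, 14.4% and 20.7% passed an adjusted p under 0.05 in limma-trend (Benjamini-Hochberg) at 1, 6, 12 and 24 h against 0 h. The balance of directions depended on scaling. At 6 h, 78.8% of the called identifiers were higher with FPKM as deposited, against 49.8% after median-of-ratios scaling, and this scaling moved the median change of all identifiers from 0.10 to about 0. At 12 h the share was 40.0% with deposited FPKM and 52.8% after that scaling, and at 24 h it was 61.3% with deposited FPKM, 53.9% after that scaling and 47.3% after upper-quartile scaling.

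Among these PR and chitinase genes, PR4 was upregulated from 12 h and JIOsPR10 was downregulated at 24 h. The other 5 genes that could be tested did not pass the threshold in any of the 7 comparisons made, and the remaining 3 genes were close to undetected. PR4 averaged 38.9 ± 21.7 FPKM at 24 h and 11.1 ± 2.38 FPKM at 0 h (SD, n = 4 each), a ratio of 3.49. JIOsPR10 averaged 2.80 ± 1.42 FPKM at 24 h and 9.31 ± 2.85 FPKM at 0 h (SD, n = 4 each), a ratio of 0.301. In whole leaves, a change in the number of cells of a type and a change in RNA per cell cannot be told apart.

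Of the 10 genes, 7 reached 0.5 FPKM in at least 4 of the 20 libraries and were tested. At 1 h, 0 of the 7 passed at an adjusted p under 0.05 (limma-trend), where 1.77% of all identifiers rose and 1.29% fell, and 0 of the 7 had an unadjusted p under 0.05. At 6 h, 0 of the 7 passed, where 18.6% of all identifiers rose and 5.02% fell, and 1 had an unadjusted p under 0.05. At 12 h, 1 of the 7 rose, where 5.76% of all identifiers rose, and 0 fell, where 8.63% of all identifiers fell, and 1 had an unadjusted p under 0.05. At 24 h, 1 of the 7 rose and 1 fell, where 12.7% of all identifiers rose and 8.03% fell, and 4 had an unadjusted p under 0.05. These shares are for an adjusted p, and no share over all identifiers is given here for the unadjusted counts. The unadjusted counts therefore have no background to be read against. Read against the shares given, the adjusted counts are no result about the list as a whole. The median change of the 7 genes was 0.10, 0.36, 0.59 and 0.59 at 1, 6, 12 and 24 h on the log2 scale, and the median of all identifiers was 0.01, 0.10, -0.03 and 0.03. The moderated F test over the 4 feeding times passed for 2 of the 7, PR4 (adjusted p = 0.000605) and JIOsPR10 (adjusted p = 0.00151), where 45.2% of all identifiers passed in limma-trend.

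**Figure D1:**
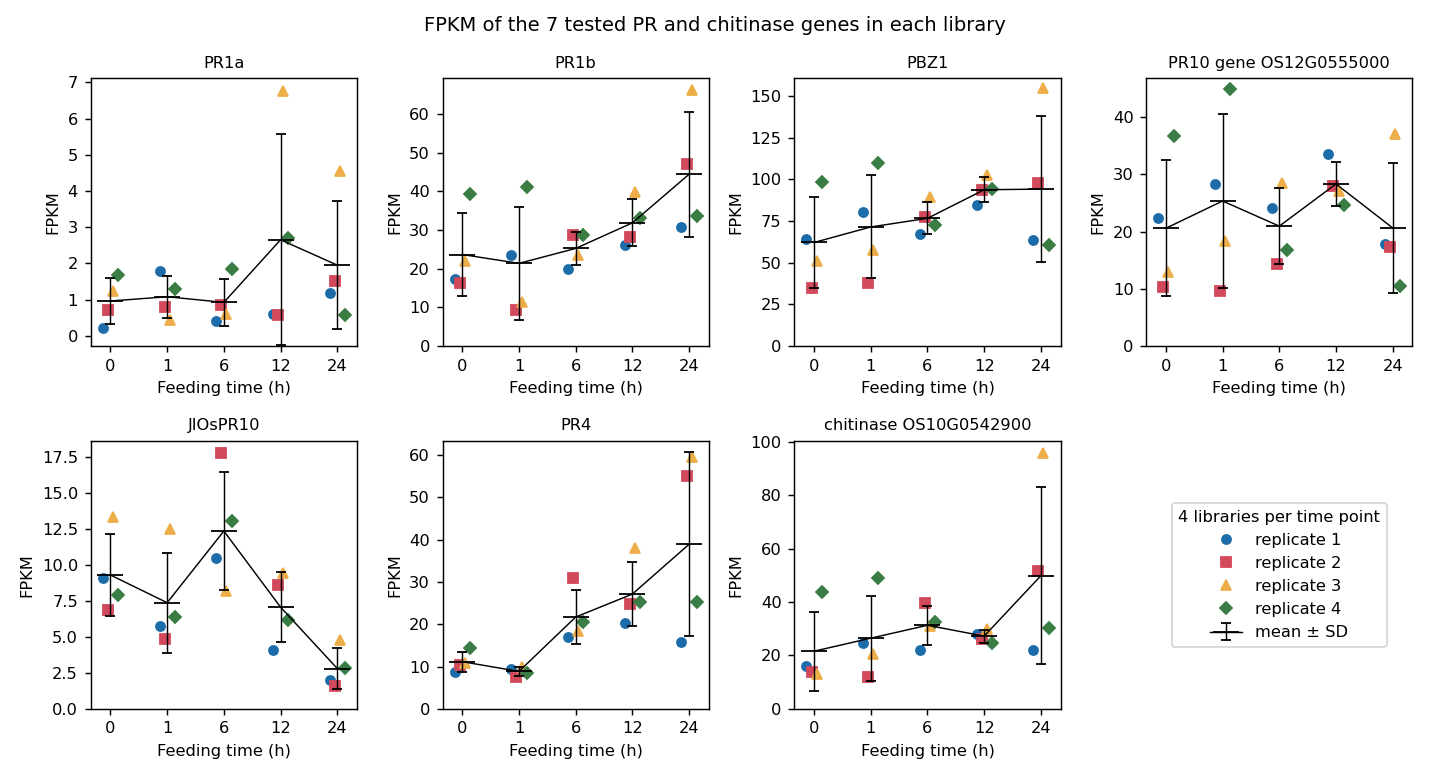
FPKM (vertical axes, linear, a separate range for each gene) against feeding time in hours for the 7 tested genes, with 1 symbol for each of the 4 libraries per time and a black line through the means with SD bars. PR4 climbs to a mean of 38.9 FPKM at 24 h, against 11.1 FPKM at 0 h, JIOsPR10 is lowest at 24 h with a mean of 2.80 FPKM, and the other 5 genes spread widely among libraries of the same time.

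PR4 belongs to the barwin family, whose members bind chitin or carbohydrates and act on fungi in other plants. It was the only gene of the list called upwards against 0 h. Its libraries, in the order of replicates 1 to 4, read 8.81, 10.5, 10.8 and 14.5 FPKM at 0 h and 9.46, 7.59, 9.95 and 8.36 FPKM at 1 h. They read 16.9, 31.0, 18.3 and 20.6 FPKM at 6 h, 20.3, 24.9, 38.1 and 25.3 FPKM at 12 h, and 15.7, 55.1, 59.6 and 25.2 FPKM at 24 h. All 4 libraries of 6 h, of 12 h and of 24 h stood above all 4 of 0 h, while the libraries of 1 h and 0 h overlapped. The same separation above 0 h held for 21.4% of all identifiers at 6 h, 7.84% at 12 h and 14.1% at 24 h. At 24 h the spread was wide, and replicate 1 lay below all libraries of 6 h whereas replicates 2 and 3 were above every library of the earlier times.

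The change of PR4 was -0.29 ± 0.32 on the log2 scale at 1 h (± SE; adjusted p = 0.717, limma-trend), 0.88 ± 0.32 at 6 h (adjusted p = 0.0521), 1.20 ± 0.32 at 12 h (adjusted p = 0.0172) and 1.54 ± 0.32 at 24 h (adjusted p = 0.00213). The exact two-sided permutation p was 0.0286 at each of 6, 12 and 24 h, the smallest that 4 against 4 libraries allow. The step from 1 h to 6 h passed by itself, with 21.7 ± 6.37 FPKM at 6 h and 8.84 ± 1.06 FPKM at 1 h (SD, n = 4 each), a change of 1.17 ± 0.32 (adjusted p = 0.0186, limma-trend). PR4 was the only one of the 7 genes called in that step, where 11.9% of all identifiers rose and 3.97% fell (15.9% in all; 75.0% of these calls were higher with deposited FPKM and 43.0% after median-of-ratios scaling), and its libraries did not overlap, as held upwards for 14.4% of all identifiers. The later steps overlapped, with changes of 0.31 ± 0.32 for 12 h against 6 h (adjusted p = 0.484, limma-trend) and 0.35 ± 0.32 for 24 h against 12 h (adjusted p = 0.578).

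The 24 h call of PR4 held without any single library, with adjusted p between 0.000112 and 0.00968 (limma-trend). The 12 h call was lost without 0 h replicate 1 (adjusted p = 0.0504, limma-trend) or without 12 h replicate 3 (adjusted p = 0.0604), and the call for 6 h against 1 h was lost without 1 h replicate 2 (adjusted p = 0.0518) or 6 h replicate 2 (adjusted p = 0.0672). The value at 6 h against 0 h lay at the threshold. It passed without 6 of the 20 libraries in turn (lowest adjusted p = 0.0170, limma-trend), and after median-of-ratios scaling it was 0.75 (adjusted p = 0.101).

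**Figure D2:**
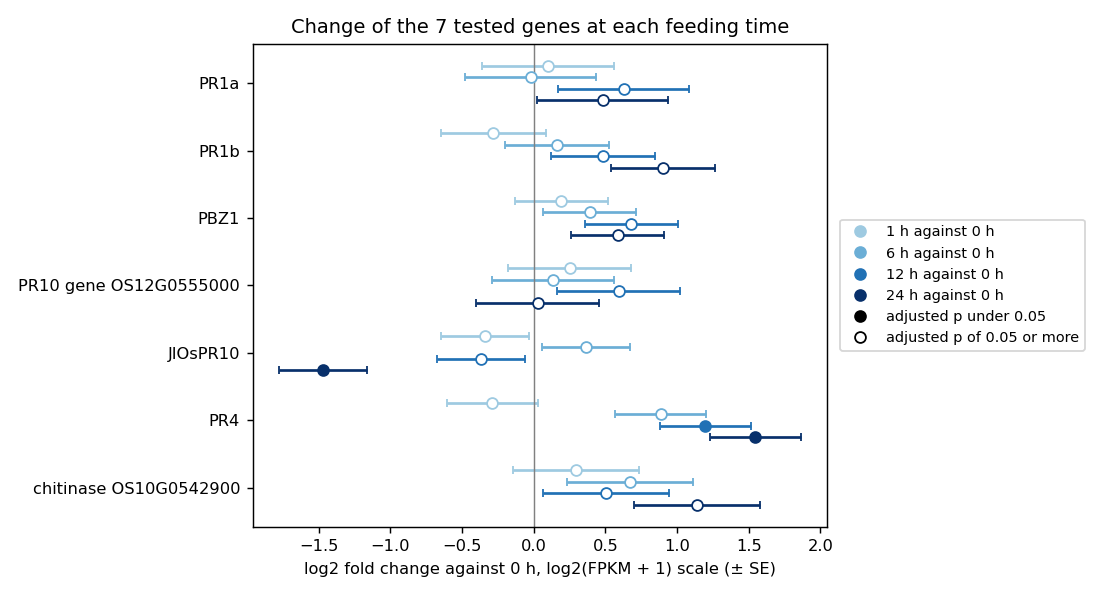
Log2 fold change against 0 h on the log2(FPKM + 1) scale (horizontal axis, ± SE from limma-trend) for the 7 tested genes (rows), with darker points for longer feeding and filled points where the adjusted p was under 0.05. The filled points are PR4 at 12 h (1.20) and 24 h (1.54) and JIOsPR10 at 24 h (-1.47).

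The 3 chitinase genes differed widely in level. OS10G0542900 had 11.8 to 95.8 FPKM, while OS06G0726200 reached at most 1.11 FPKM and OS06G0726100 was at 0 in 19 of 20 libraries. The libraries of OS10G0542900 read 16.0, 13.6, 13.0 and 43.7 FPKM at 0 h and 24.5, 11.8, 20.7 and 48.8 FPKM at 1 h. They read 21.9, 39.6, 31.0 and 32.6 FPKM at 6 h, 28.2, 26.1, 30.1 and 24.5 FPKM at 12 h, and 22.0, 51.4, 95.8 and 30.2 FPKM at 24 h. All comparisons overlapped. Replicate 4 of 0 h and of 1 h stood above all libraries of 6 h and 12 h. The other 0 h libraries did not exceed 16.0 FPKM, below every library of 6, 12 and 24 h. Replicate 4 of 0 h was set aside in that reading after its value was seen. The reading therefore describes single libraries and is no separation of the groups.

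OS10G0542900 averaged 49.8 ± 33.0 FPKM at 24 h and 21.6 ± 14.8 FPKM at 0 h (SD, n = 4 each), a change of 1.14 ± 0.44 on the log2 scale that did not pass (adjusted p = 0.0756, limma-trend). This value turned on single libraries. It was 1.53 (adjusted p = 0.0159, limma-trend) without 0 h replicate 4, 1.45 (adjusted p = 0.0284) without 24 h replicate 1, and 0.75 (adjusted p = 0.259) without 24 h replicate 3. At 1, 6 and 12 h its changes were 0.30, 0.67 and 0.50 (adjusted p = 0.80, 0.291 and 0.503, limma-trend).

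OS06G0726200 had 106 fragments in the 20 libraries together, between 1 and 25 in each, and reached 0.5 FPKM in only 2 libraries, so that it was not tested. It had 0.133, 0.217, 1.11 and 0.0428 FPKM at 12 h and 0.0825, 0.318, 0.595 and 0.217 FPKM at 24 h, against 0.0790, 0.188, 0.0383 and 0.267 FPKM at 0 h. The highest values were those of replicate 3 at both later times, and the groups overlapped. OS06G0726100 had 2 fragments in all, both in replicate 3 of 24 h. A count of 0 allows up to 3 fragments in a library, and differences of this gene were not detectable at this depth.

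Of the 3 PR10 genes, PBZ1, named for its induction by the fungicide probenazole, was the highest of the 10 genes in 20 of 20 libraries. Its share of the summed FPKM of the 10 genes was 41.4%, 44.6%, 40.5%, 43.1% and 37.8% at 0, 1, 6, 12 and 24 h. Its libraries read 64.3, 34.6, 51.1 and 98.4 FPKM at 0 h, 80.4, 37.8, 57.8 and 110 FPKM at 1 h, and 67.0, 77.7, 89.3 and 72.4 FPKM at 6 h. They read 84.4, 93.4, 103 and 94.3 FPKM at 12 h and 63.8, 97.6, 154 and 60.7 FPKM at 24 h. The 12 h libraries lay close together, and replicate 4 of 0 h overlapped them.

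PBZ1 averaged 93.7 ± 7.54 FPKM at 12 h and 94.1 ± 43.6 FPKM at 24 h, against 62.1 ± 27.1 FPKM at 0 h (SD, n = 4 each). The changes were 0.68 ± 0.33 at 12 h (adjusted p = 0.185, limma-trend) and 0.59 ± 0.33 at 24 h (adjusted p = 0.227), and neither passed. At 1 and 6 h they were 0.19 and 0.39 (adjusted p = 0.83 and 0.424, limma-trend).

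OS12G0555000, the second PR10 gene of chromosome 12, did not pass at any time. It read 22.3, 10.4, 12.9 and 36.7 FPKM at 0 h, 28.4, 9.65, 18.4 and 44.9 FPKM at 1 h, and 24.1, 14.3, 28.6 and 16.8 FPKM at 6 h. At 12 h it read 33.6, 28.0, 27.0 and 24.6 FPKM, and at 24 h 17.8, 17.3, 37.0 and 10.5 FPKM. The groups overlapped at every time. Its mean was 20.6 FPKM at 24 h and 20.6 FPKM at 0 h, a change of 0.03 ± 0.43 (adjusted p = 0.978, limma-trend), and its largest change was 0.59 ± 0.43 at 12 h (adjusted p = 0.406).

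JIOsPR10, named as a JA-inducible PR10 gene, was the only member of the list that fell. Its libraries read 9.08, 6.86, 13.4 and 7.93 FPKM at 0 h, 5.75, 4.84, 12.5 and 6.41 FPKM at 1 h, and 10.5, 17.8, 8.17 and 13.0 FPKM at 6 h. They read 4.11, 8.58, 9.44 and 6.16 FPKM at 12 h and 2.00, 1.60, 4.79 and 2.83 FPKM at 24 h. All 4 libraries of 24 h lay below all 4 of 0 h, a separation that 10.1% of all identifiers showed downwards, and the other times overlapped 0 h. The lowest library of all, replicate 2 of 24 h, still held 29 fragments of the gene.

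The change of JIOsPR10 was -0.34 ± 0.31 at 1 h, 0.36 ± 0.31 at 6 h and -0.37 ± 0.31 at 12 h (adjusted p = 0.637, 0.433 and 0.484, limma-trend), and -1.47 ± 0.31 at 24 h (adjusted p = 0.00242). The exact two-sided permutation p at 24 h was 0.0286. The 24 h call held without any single library (adjusted p between 0.00129 and 0.0115, limma-trend). The steps within the course did not pass, with -0.73 ± 0.31 for 12 h against 6 h (adjusted p = 0.074, limma-trend) and -1.10 ± 0.31 for 24 h against 12 h (adjusted p = 0.0624). In each of these steps 1 gene, JIOsPR10, had an unadjusted p under 0.05, a cut-off with no share over all identifiers given here. At an adjusted p under 0.05, 0 of the 7 genes were called in these steps. Of all identifiers, 35.4% were called for 12 h against 6 h (7.92% higher, 27.4% lower) and 2.75% for 24 h against 12 h (2.12% higher, 0.623% lower). The share of these calls that were higher was 22.4% for 12 h against 6 h and 77.3% for 24 h against 12 h with deposited FPKM, and 52.3% and 52.4% after median-of-ratios scaling. The step to 24 h passed without 1 h replicate 3 (adjusted p = 0.0459, limma-trend) or without 12 h replicate 1 (adjusted p = 0.0474).

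Ratios within a library compare the PR10 genes without any scaling between libraries. JIOsPR10 over PBZ1 was 0.0313, 0.0164, 0.0310 and 0.0466 in the 4 libraries of 24 h, against 0.141, 0.198, 0.261 and 0.0805 in those of 0 h. At 12 h it was between 0.0488 and 0.0919, overlapping the lowest library of 0 h. JIOsPR10 over OS12G0555000 was between 0.0922 and 0.269 at 24 h, against 0.216 to 1.03 at 0 h, and these ranges overlapped. OS12G0555000 over PBZ1 was between 0.173 and 0.279 at 24 h, against 0.253 to 0.373 at 0 h, and these ranges overlapped also. The ratios follow from the levels above and are given as a description. For the log2 ratio of JIOsPR10 over PBZ1 at 24 h against 0 h, the exact permutation p was 0.0286. Adjusted by Benjamini-Hochberg over 12 such ratio tests it was 0.229 and did not pass.

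**Figure D3:**
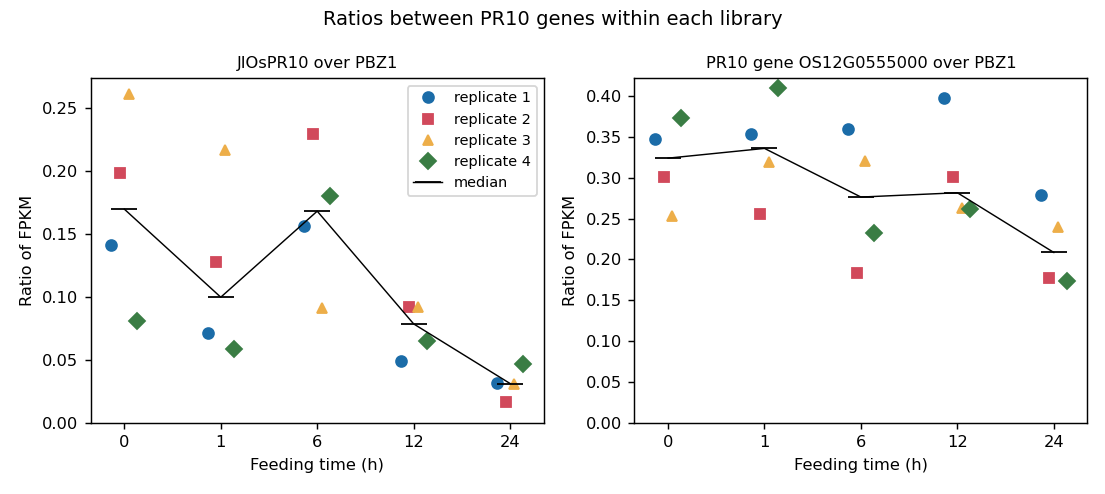
Ratio of FPKM within each library (vertical axes, from 0) against feeding time in hours for JIOsPR10 over PBZ1 (left) and OS12G0555000 over PBZ1 (right), with 1 symbol per replicate and a line through the medians. On the left the 4 libraries of 24 h are at or below 0.0466, under all of 0 h, and on the right the ranges of 24 h and 0 h overlap.

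Because JIOsPR10 carries the name of a JA response, allene oxide cyclase (AOC, OS03G0438100), an enzyme of JA synthesis, was read in the same libraries. AOC averaged 133, 218, 288, 189 and 283 FPKM at 0, 1, 6, 12 and 24 h. At 24 h AOC was 2.13 times its 0 h mean (change 1.05 ± 0.18, adjusted p = 0.00048, limma-trend), where JIOsPR10 was 0.301 times its own. At 6 h the AOC change was 1.07 ± 0.18 (adjusted p = 0.000619, limma-trend), and that of JIOsPR10 was 0.36 ± 0.31 (adjusted p = 0.433). At 12 h the AOC change was 0.51 ± 0.18 (adjusted p = 0.0715, limma-trend) and did not pass, although it passed after both scalings (adjusted p = 0.0438 with median-of-ratios and 0.0436 with upper-quartile factors). The 1 h change of AOC, 0.71 ± 0.18 (adjusted p = 0.0394, limma-trend), was no longer called when any single library of 0 h or 1 h was left out.

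The PR1 genes, secreted proteins of the CAP superfamily, were present at very different levels. PR1b averaged 29.3 FPKM over the 20 libraries and PR1a 1.52 FPKM. PR1b read 17.2, 16.3, 21.9 and 39.2 FPKM at 0 h, 23.7, 9.35, 11.4 and 41.1 FPKM at 1 h, and 19.9, 28.7, 23.6 and 28.8 FPKM at 6 h. It read 26.2, 28.3, 39.9 and 33.1 FPKM at 12 h and 30.7, 46.9, 66.2 and 33.8 FPKM at 24 h. The 24 h libraries exceeded replicates 1, 2 and 3 of 0 h, and replicate 4 of 0 h lay among them. PR1b averaged 44.4 ± 16.1 FPKM at 24 h and 23.7 ± 10.7 FPKM at 0 h (SD, n = 4 each), a change of 0.90 ± 0.36 that did not pass (adjusted p = 0.0904, limma-trend). It was 1.17 (adjusted p = 0.0341, limma-trend) without 0 h replicate 4 and passed also without 1 h replicate 4 (adjusted p = 0.0385), while it was 0.69 (adjusted p = 0.255) without 24 h replicate 3.

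PR1a was held by few fragments, 3 to 80 in a library and 384 in all. It read 0.592, 0.579, 6.76 and 2.69 FPKM at 12 h and 1.18, 1.52, 4.54 and 0.581 FPKM at 24 h, against 0.226, 0.716, 1.24 and 1.67 FPKM at 0 h. Replicate 3 was far above the other libraries at both later times, and at 12 h replicate 4 also stood above all 4 libraries of 0 h, while the remaining libraries of these times overlapped 0 h. The changes were 0.63 ± 0.46 at 12 h (adjusted p = 0.41, limma-trend) and 0.48 ± 0.46 at 24 h (adjusted p = 0.512). At 1 and 6 h PR1a lay between 0.419 and 1.85 FPKM, with changes of 0.10 and -0.02 (adjusted p = 0.946 and 0.98, limma-trend).

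The thaumatin-like PR5 gene OS12G0628600 had 6 fragments in the 20 libraries together and was at 0 in 15 of them. It had 4 fragments in the 12 h libraries and 2 fragments in those of 0 h, and 0 fragments at 1, 6 and 24 h. With a count of 0 allowing up to 3 fragments in a library, the gene was too low to be tested.

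In the order of mean levels, PR4 changed places with OS12G0555000 and PR1b with chitinase OS10G0542900 between 0 h and 24 h. Neither pair moved steadily, and the ranges overlapped. Both pairs stood at 6 h as at 24 h, and at 12 h as at 0 h again. The 12 h means were 31.9 FPKM for PR1b, 27.2 FPKM for the chitinase, 28.3 FPKM for OS12G0555000 and 27.1 FPKM for PR4. At 0 h the means ran from PBZ1 (62.1 FPKM) through PR1b (23.7), chitinase OS10G0542900 (21.6), OS12G0555000 (20.6), PR4 (11.1) and JIOsPR10 (9.31) to PR1a (0.965). Only JIOsPR10 and PR1a among these neighbours in the order had ranges that did not overlap. At 24 h the order was PBZ1 (94.1 FPKM), chitinase OS10G0542900 (49.8), PR1b (44.4), PR4 (38.9), OS12G0555000 (20.6), JIOsPR10 (2.80) and PR1a (1.95), and only OS12G0555000 and JIOsPR10 were apart. PR4 stood above OS12G0555000 in 3 of 4 libraries at 24 h, against 1 of 4 at 0 h. JIOsPR10 stood above PR4 in 0 of 4 libraries at 6, 12 and 24 h, against 2 of 4 at 0 h. Summed over the 10 genes, the level was 253 ± 125 FPKM at 24 h and 150 ± 64.7 FPKM at 0 h (SD, n = 4 each). PR4 made up 15% of the sum at 24 h and 8.07% at 0 h, and JIOsPR10 1.19% at 24 h and 6.99% at 0 h.

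Libraries of the same time differed from each other in several of these genes at once. At 24 h, replicate 3 was the highest of its time for 7 of the 7 tested genes, where it was the highest for 28.4% of all identifiers tested, and it was also the deepest library, with 22090145 fragments. At 12 h, replicate 3 was the highest for 6 of the 7 (24.5% of all identifiers), and at 0 h, replicate 4 was the highest for 6 of the 7 (25.1%). JIOsPR10 was the exception at 0 h and OS12G0555000 at 12 h. At 1 h, replicate 2 was the lowest for 6 of the 7 (29.6% of all identifiers). Replicate 4 of 0 h and replicate 3 of 24 h are among the libraries that moved the 24 h values of PR1b and chitinase OS10G0542900 when left out. What sets these libraries apart was not tested.

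**Figure D4:**
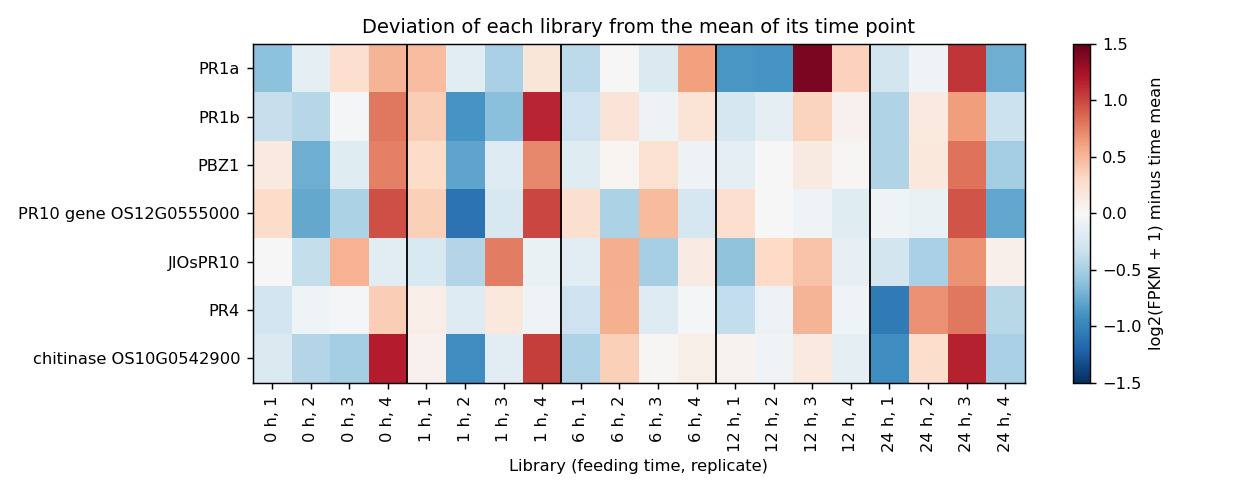
Deviation of each library from the mean of its own time point in log2(FPKM + 1) (color scale, red above and blue below) for the 7 tested genes (rows) in the 20 libraries (columns, by feeding time in hours and replicate, with lines between times). The column of 24 h replicate 3 is above its time mean for 7 of 7 genes and that of 1 h replicate 2 is below for 7 of 7.

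The likeness of courses was measured as the root-mean-square difference of z-scored log2(FPKM + 1) over the 20 libraries, where 0 is an identical course. PBZ1 and chitinase OS10G0542900 differed by 0.499, and the chitinase ranked 2 among the 24057 other identifiers by closeness to PBZ1. PR1b and the same chitinase differed by 0.529 (rank 3 for PR1b), and OS12G0555000 and PBZ1 by 0.581 (rank 7 for OS12G0555000). PR4 and PR1a were farther from the others. PR1b was the closest member to both, at 0.715 for PR4 (rank 548) and 0.835 for PR1a (rank 24). The member closest to JIOsPR10 was OS12G0555000 at 1.36 (rank 12503), about the median difference of all identifiers from it, 1.35. Outside the list, the closest identifiers were OS10G0491000 for PBZ1 (0.401), OS03G0133400 for chitinase OS10G0542900 (0.400) and OS01G0940700 for PR1b (0.493), which is also among the glucanases listed below. These values describe libraries that share time points and library effects, and carry no test.

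Other genes of the same families were read from a list of 25 identifiers (PR1, PR2 beta-1,3-glucanase, chitinase, PR4, PR5 and PR10) drawn from general knowledge of rice, since the files do not name them. Of these, 14 had enough signal to be tested. At 1, 6, 12 and 24 h, 1, 3, 6 and 6 of the 14 rose and 0 fell (limma-trend, adjusted p under 0.05), where 1.77%, 18.6%, 5.76% and 12.7% of all identifiers rose. At an unadjusted p under 0.05, in either direction, the numbers were 1, 3, 7 and 9. No share of all identifiers at that cut-off is given here, and the shares above, for an adjusted p, are no background for these numbers. Their median change was 0.06, 0.38, 0.71 and 0.83 at these times. A total of 10 of the 14 rose at 1 or more times, as did 27.3% of all identifiers (1 of the PR1 list, 3 of the glucanases, 3 of the chitinases, 2 of the PR5 list, 1 of the PR4 list and 0 of the PR10 list), and this number was 6 without 0 h replicate 2. OS12G0569500, of the PR5 list and picked after its values were seen, rose at all 4 times and averaged 33.9, 230, 321, 105 and 191 FPKM at 0, 1, 6, 12 and 24 h. Its change was 3.17 ± 0.32 at 6 h and 2.36 ± 0.32 at 24 h, in contrast to the listed PR5 gene, which had 6 fragments in all.

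Identifiers numbered within 1000 of a member on the same chromosome were 109, of which 52 were tested. At 1, 6, 12 and 24 h, 2, 10, 3 and 6 of the 52 rose and 0, 2, 7 and 8 fell (limma-trend, adjusted p under 0.05). Over all identifiers 1.77%, 18.6%, 5.76% and 12.7% rose and 1.29%, 5.02%, 8.63% and 8.03% fell. For those that rose, the shares near the members were close to those over all at 6, 12 and 24 h. For those that fell, 7 and 8 of the 52 at 12 and 24 h were larger shares than those over all, a difference that was not tested. The largest changes among those called were at OS06G0725200, near the chromosome 6 chitinases (2.19 ± 0.27 at 6 h), and OS11G0592000, near PR4 (1.52 ± 0.40 at 24 h, adjusted p = 0.0123). Next were OS03G0301200, near JIOsPR10 (1.36 ± 0.45 at 24 h, adjusted p = 0.0374), and OS01G0382400, near PR1b (1.21 ± 0.29 at 12 h, adjusted p = 0.00874). OS11G0592000 and OS01G0382400 are also on the family list above. OS06G0725200 averaged 1.04, 3.57, 8.41, 3.79 and 4.39 FPKM at 0, 1, 6, 12 and 24 h, while the chitinases numbered beside it stayed near 0. OS03G0301200 averaged 8.43 ± 6.29 FPKM at 24 h and 2.28 ± 1.70 FPKM at 0 h (SD, n = 4 each).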

How the data were processed

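Per the labels and the study's methods, total RNA of rice leaves was made into libraries with the NEBNext Ultra kit. Reads were aligned to the IRGSP-1.0 genome with HISAT2 2.09 and counted with featureCounts 1.5.0-p3, as the submitters' processing notes list them, and the authors tested counts in DESeq2. Uniquely mapped reads were used, so that the levels of any near-identical copies are uncertain. Whether the PR10 genes of chromosome 12 or the neighbouring chitinases are such copies was not examined. Whether counting used strand is not given in the sources used here. The deposited values, 1 table per library, are FPKM per gene made by the authors. The values were whole fragments (tolerance 0.01) for 35755 of 35755 identifiers above 0, which gave fragment numbers and depth (17796536 to 22090145 per library). These numbers cover counting error only.

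Here, identifiers with at least 0.5 FPKM in at least 4 of 20 libraries were kept (24058 of 92858), and log2(FPKM + 1) was fitted with limma 3.58.1 in R 4.3.3 (limma-trend, 1 fit of all 20 libraries, 15 residual degrees of freedom). The comparisons were 1, 6, 12 and 24 h against 0 h, 6 h against 1 h, 12 h against 6 h and 24 h against 12 h, with a moderated F test. P-values were adjusted by Benjamini-Hochberg over all identifiers tested. Exact two-sided permutation tests of single genes went over all splits of 4 against 4 libraries, with the difference of mean log2(FPKM + 1), in numpy 2.4.6. The fit was tested on simulated data. Groups came from the time point in the labels. The members and lists were chosen with earlier results of these data known. Named were all 10 members, AOC, up to 4 identifiers numbered near the members with the largest change among those called, and the closest identifier outside the list for each of the 3 members with the highest mean FPKM. Alternatives were a pseudocount of 0.1, no filter, a mean of at least 1 FPKM, scaling by median-of-ratios or upper-quartile factors, limma-voom with the fragment numbers, fits of only the groups compared, the replicate number as a block, and fits without 1 library each.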

Additional observations from a re-analysis of the deposited data

Results flagged for a closer look

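In groups of 4 libraries, a library whose gap to its nearest neighbour takes up most of the group's range was picked out with Dixon's ratio. For normally distributed values the ratio marks about 1 in 20 groups by chance. That rate does not hold for groups of few fragments, where 3 libraries at 0 and 1 above 0 give a ratio of 1.0 by construction. Of 43 groups checked, 4 held such a library. Chitinase OS10G0542900 had 43.7 FPKM (1009 fragments) in replicate 4 of 0 h, a gap ratio of 0.901, and this library bears on its 24 h value as given above. The other marks rest on few fragments. Chitinase OS06G0726200 had 0.231 FPKM (5 fragments) in replicate 3 of 1 h, a ratio of 0.991, and 1.11 FPKM (25 fragments) in replicate 3 of 12 h, a ratio of 0.837. Chitinase OS06G0726100 had 0.0774 FPKM (2 fragments) in replicate 3 of 24 h, a ratio of 1.0, the other 3 libraries being at 0.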

How the results depend on the processing

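For the 7 tested genes, 1499 of 1561 values under an alternative kept their side of the threshold and, where they had one, their direction. The F test values among them have no direction and could not change sign. Of the 1561 values, 34 changed sign, none of them a called value. The calls of PR4 and JIOsPR10 at 24 h held under every alternative tried and without any single library. Left-out libraries named beside results in the report are not repeated. The number of the 7 genes called was 1 in place of 0 at 6 h against 0 h with a pseudocount of 0.1, a mean of at least 1 FPKM, groups compared alone or a replicate block (PR4 in each). It was 1 in place of 0 for 12 h against 6 h in limma-voom (JIOsPR10). With no filter, when all 10 genes enter, 1 was called for that step, the PR5 gene, which rests on 4 fragments at 12 h and 0 at 6 h (adjusted p = 0.0263, limma-trend). The number of the 7 genes called was also 1 in place of 0 for 24 h against 12 h with a replicate block (JIOsPR10). PR1b at 24 h passed in limma-voom (adjusted p = 0.0478), and AOC at 1 h did not pass with no filter (adjusted p = 0.0662, limma-trend). Without single libraries the number of genes called was 0 to 1 at 6 h, 0 to 1 at 12 h, 2 to 4 at 24 h (4 without 0 h replicate 4), and 0 to 1 for each of 6 h against 1 h, 12 h against 6 h and 24 h against 12 h. The related genes called at 1 or more times were 6 to 10.

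Over all identifiers, groups compared alone gave 458 calls in place of 737 at 1 h and 150 in place of 661 for 24 h against 12 h. Without single libraries the calls were 388 to 945 at 1 h, 3692 to 6102 at 6 h, 2524 to 4820 for 6 h against 1 h and 214 to 883 for 24 h against 12 h. The cause of these shifts was not tested.

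Among changes not called, PR1a at 6 h was 0.0159 with a pseudocount of 0.1 and 0.0356 in limma-voom. OS12G0555000 was -0.00087 at 6 h after upper-quartile scaling, and -0.0103 and -0.0394 at 24 h after median-of-ratios and upper-quartile scaling. Chitinase OS10G0542900 was 0.012 for 12 h against 6 h after median-of-ratios scaling. Without single libraries, PR1a ran from -0.11 to 0.27 at 1 h, -0.23 to 0.15 at 6 h, -0.33 to 0.0337 for 6 h against 1 h and -0.50 to 0.33 for 24 h against 12 h, and PR1b from -0.66 to 0.0134 at 1 h. PBZ1 ran from -0.0497 to 0.46 at 1 h, -0.068 to 0.44 for 6 h against 1 h and -0.37 to 0.0781 for 24 h against 12 h. OS12G0555000 ran from -0.0837 to 0.62 at 1 h, -0.12 to 0.45 at 6 h, -0.29 to 0.35 at 24 h and -0.49 to 0.22 for 6 h against 1 h, and chitinase OS10G0542900 from -0.0492 to 0.69 at 1 h.

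Over all 24058 identifiers tested, libraries with the same replicate number did not deviate together. The correlations of their deviations from the time means were -0.165 to 0.242 (median 0.00846, over 0.1 in 6 of 40), and 13 of 40 were closest to their own number. The correlation was not computed for the 7 genes alone, and single genes differed. PBZ1 deviated alike in replicates 2 and 4 of 0 h (-0.73 and 0.76) and of 1 h (-0.79 and 0.72). So did OS12G0555000 (-0.76 and 0.96, then -1.11 and 0.999) and chitinase OS10G0542900 (-0.44 and 1.17, then -0.93 and 1.03). PR1b did as well (-0.42 and 0.79, then -0.89 and 1.14), and PR1a had the same signs at smaller size. JIOsPR10 was highest in replicate 3 at both times (0.52 and 0.77). At 6 h PBZ1 was at 0.03 and -0.07 in replicates 2 and 4. PR4 did not deviate alike, with replicates 1 and 4 at -0.29 and 0.37 at 0 h and at 0.09 and -0.07 at 1 h. The replicate block changed no call against 0 h among the 7 genes other than that of PR4 at 6 h. With 4 libraries per time and 3 genes at or near 0 fragments, the depth limits what can be said of OS06G0726100, OS06G0726200 and the PR5 gene.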
